A study of Mus musculus with 360 samples.

Results

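The subject is the unexposed mouse ovary, set against 4 other organs of the same control mice. Its members are the 20 ovary libraries at 0 ppm that the labels mark as used in the submitters' analysis, of 360 libraries in the whole series. They come from 9-week-old female B6D2F1/Crl mice, also called BDF-1, a hybrid of the inbred strains DBA/2 and C57BL/6. The mice served as the unexposed controls of an experiment on 1,2-dichlorobenzene and another on 1,4-dichlorobenzene, with 10 ovaries from each, and tissues were taken on study day 5. The comparison tissues are 16 libraries of the left liver lobe, 11 of kidney, 20 of lung and 20 of heart from the same control groups, 67 in all. Each library is 1 animal and 1 organ. Expression was read with TempO-Seq on the mouse S1500+ v1.2 panel, in which pairs of detector oligonucleotides are ligated on their target RNA and counted, so a gene is seen only through its probes.

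Ovaries were collected whole, with those of both sides in 1 sample, whereas the other organs entered as pieces. Organs were taken in the order lung, heart, liver, kidney, ovary, so organ, collection order and the form of the sample cannot be told apart. The labels give no stage of the estrous cycle for these mice. A whole ovary holds follicles at several stages, corpora lutea, stroma, vessels and surface epithelium, together with whatever bursa, oviduct or fat was attached. In such bulk samples fewer cells of a type and less RNA per cell cannot be told apart.

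As background, the ovary makes eggs and steroid hormones. Theca and luteal cells take cholesterol into mitochondria with the carrier Star, cut its side chain with Cyp11a1 and convert the product with the 3-beta-hydroxysteroid dehydrogenases and Cyp17a1, and granulosa cells turn androgens into estrogens with Cyp19a1. Granulosa cells also secrete inhibin and activin, dimers of the subunits encoded by Inha, Inhba and Inhbb, which restrain or raise pituitary FSH. Oocytes inside the follicles express a set of genes that few other cells use.

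Ovary libraries held 4416234 to 11578590 counts, against the 8422157 to 37214859 counts of the other organs. The 10 strongest probes took 23.2 to 28.2% of an ovary library and 54 to 63.2% of a heart library. This difference in makeup is why library sizes were adjusted by the trimmed mean of M-values (TMM). Levels are given as CPM, a library's counts divided by its adjusted size and put on a common scale. The adjusted size is the total count times a TMM factor. This factor was 2.19 to 2.55 in ovary, 1.22 to 1.66 in kidney and 1.04 to 1.44 in lung. It was 0.439 to 0.551 in liver and 0.497 to 0.658 in heart. CPM values and their sums are therefore not shares of a library's counts. Tissue labels were set beside markers listed for each organ. All 17 hepatocyte markers were lower in ovary than in liver, all 6 kidney tubule markers lower than in kidney, both lung epithelial markers lower than in lung and all 8 cardiomyocyte markers lower than in heart (edgeR adjusted p under 0.05). Markers almost absent from ovary, such as Lamp3 (mean 0 CPM) and Myl3 (0.00697), entered the test through other organs. For these a lower call was largely fixed beforehand. Over all probes 43.2% were lower in ovary than in liver, 39% than in kidney, 40.2% than in lung and 40.4% than in heart, and 45.1%, 41.8%, 42.6% and 42.8% were higher. The summed cardiomyocyte markers lay between 29.1 and 73.9 CPM in the ovaries, against 366600 to 567000 in the hearts. One ovary, from animal 9 of the 1,2-dichlorobenzene controls, stood apart in several genes below: it was the highest ovary for Star and S100a4 and the lowest for Krt18, Cdh1, Pax8 and Pgr. When each ovary was left out in turn, this one among them, 317 to 324 probes were above every other tissue.

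Of 2937 probes tested with edgeR's quasi-likelihood test, 1189 (40.5%) were higher in ovary than in the mean of the 4 tissues and 1255 (42.7%) were lower, at an adjusted p under 0.05. So 83.2% of probes were called, and a call against the mean of 4 organs is the common case. A stricter rule asked for a difference of at least 1 log2 unit, past the threshold, against each of the 4 tissues separately: 321 probes (10.9%) were higher than every other tissue by that rule and 62 (2.11%) were lower. Counting 1 probe per gene, 2595 genes were tested, 40.6% were higher, 43.2% lower, 11% higher than every other tissue and 2% lower than every other tissue, and these shares are the background for the counts of members given here. In 204 probes (6.95%) all 20 ovaries lay above all 67 other libraries, and in 72 (2.45%) all 20 lay below. The median log2 difference over all genes was -0.09. With total counts in place of TMM the median over all probes was 1.41 and the calls became 2366 higher and 286 lower. The strict rule then gave 742 probes higher and 5 lower than every other tissue. List counts against the mean are therefore given under both scalings where these differ. Those under total counts have 2366 higher and 286 lower of 2937 probes as their background. For lists and genes, the strict rule and comparisons of ovaries with every other library are given under TMM only. A gene seen almost only in 1 organ passed the filter on low counts through that organ, so its call was largely fixed beforehand.

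**Figure D1:**
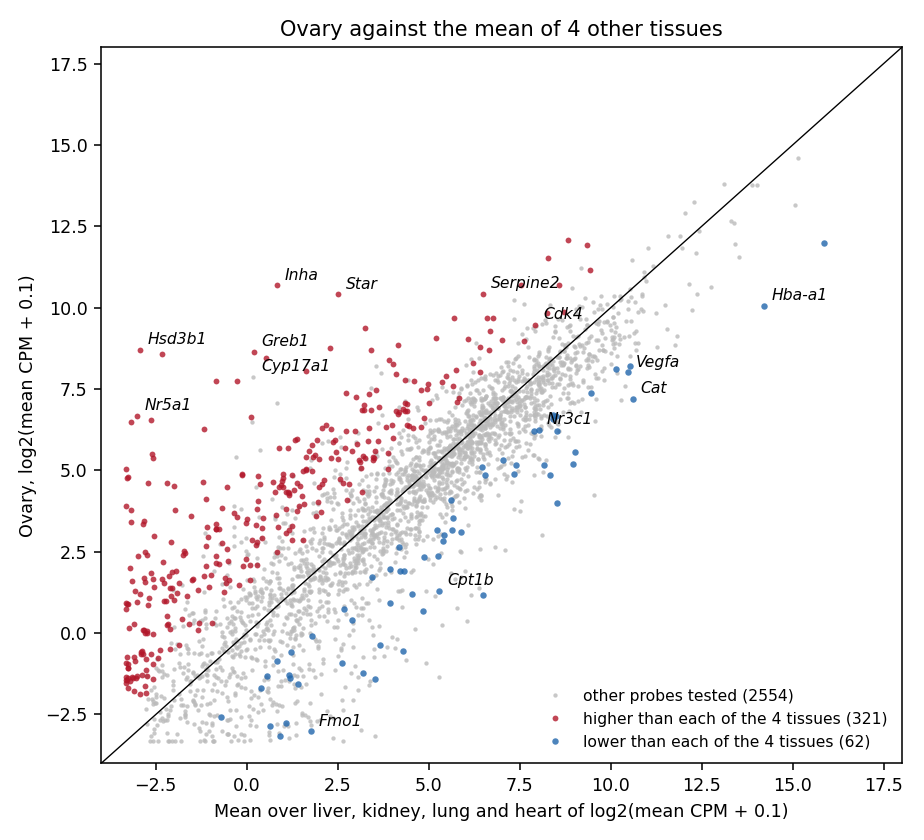
Each point is 1 probe, with the mean of its log2 levels in the 4 other tissues (horizontal) and the log2 of its mean CPM in the 20 ovaries (vertical). Red points are the 321 probes higher than every other tissue and blue points the 62 lower than every other tissue; the red points reach farther from the diagonal than the blue ones.

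Most steroid synthesis genes were above the mean of the other organs. Of 9 listed genes that the panel holds, 8 were higher than the mean of the 4 tissues, 6 of them higher than every other tissue, and 1 was lower. Among the 6 were Hsd3b6 and Cyp11b1, whose ovary medians were at most 0.375 CPM in the controls of each experiment. Of the 9 genes, 6 had a tissue without a count, and for genes seen almost only in ovary a higher call was largely fixed by the filter. The level summed over all 9, Hsd3b2 among them, had a median of 1186 CPM in ovary, 1278 in kidney and 733.1 in liver. It was 19.6 in lung and 6.96 in heart. The median log2 difference of the list was 7.05, or 7.26 with tissues without a count set to a floor of 3 counts over the group, beside -0.09 over all genes. Neither total-count scaling nor the other scalings tried changed these 8 and 1.

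Hsd3b1, the 3-beta-hydroxysteroid dehydrogenase of gonads and adrenal, ran from 290.9 to 659.5 CPM in the ovaries with a median of 390.2. Its 67 other libraries held 32 counts between them, and lung and heart had none. No ovary approached any other library. The mean ovary CPM was 2438 times that of kidney, the next tissue, and a second Hsd3b1 probe gave 699 times. Hsd3b2, a paralog of liver and kidney, showed the opposite order: 0 to 1.00 CPM in ovary (median 0.327) against 544.8 to 1363 in kidney and 185.8 to 741.9 in liver. It was the 1 steroid gene below the mean of the tissues (log2 -5.52 ± 1.14 SE, edgeR adjusted p = 8.7e-06). Hsd3b6, another paralog, was near the detection limit in ovary, at 0 to 0.997 CPM with a median of 0.176. Reads of these near-identical genes can be split between probes, so their separate values are uncertain.

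Star ran from 50.04 to 7024 CPM in ovary with a median of 432.4. The highest other library, a lung, had 18.5 CPM, so all 20 ovaries lay above it despite their own wide range. The log2 difference was 7.05 ± 0.21 (SE, edgeR adjusted p = 8.7e-48), and the mean ovary was 172 times the mean lung. Cyp11a1, the side-chain cleavage enzyme, gave only 0.201 to 7.40 CPM (median 1.74), and 15 of 20 ovaries lay above every other library. Liver and kidney had no Cyp11a1 count, and the ovary mean was 59.2 times that of heart.

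Cyp19a1, the aromatase, ran from 2.97 to 32 CPM with a median of 12.8, and 10 counts were seen in all 67 other libraries. All 20 ovaries exceeded them, with a mean 344 times that of liver. Cyp17a1, which makes androgens, was not private to the ovary. It ran from 11.4 to 519.8 CPM there (median 225.7) and from 67.5 to 238.8 CPM in liver (median 125.1), while heart had no count. Ovary and liver overlapped, with 9 of 20 ovaries above every liver, and the log2 difference to liver was 0.78. Srd5a1, a steroid 5-alpha-reductase, was likewise higher than the mean (log2 2.35 ± 0.12) yet lower than in liver by a log2 difference of -2.17. Cyp11b1, the adrenal 11-beta-hydroxylase, had a median of 0.135 CPM, and the ovary of 1 animal, number 8 of the 1,2-dichlorobenzene controls, reached 22.1 CPM.

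**Figure D2:**
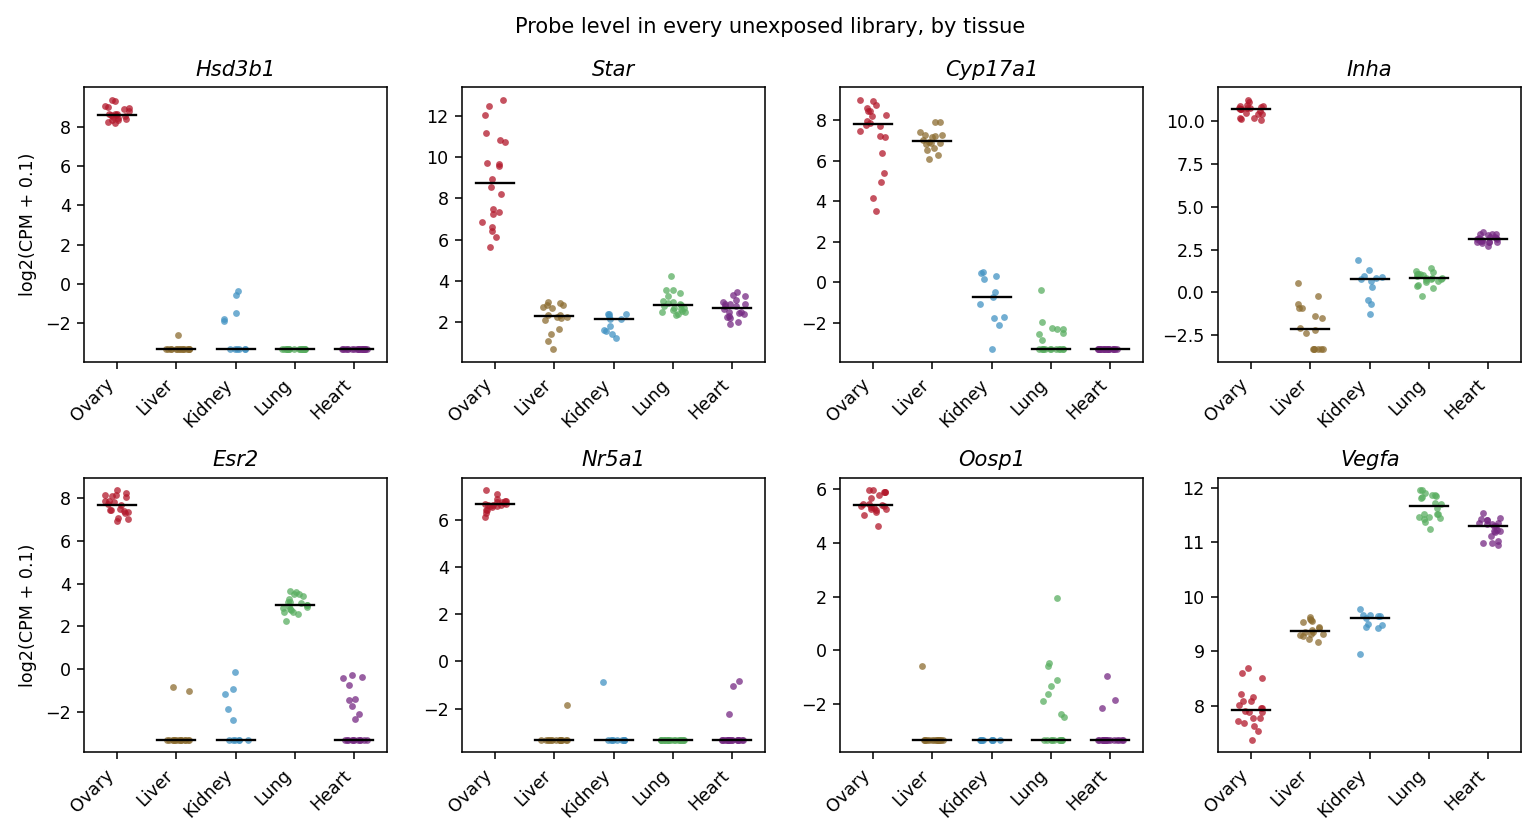
Each point is 1 library and each bar the median of a tissue, for 8 genes, on a log2 axis of CPM. For Hsd3b1, Star, Inha, Esr2, Nr5a1 and Oosp1 the 20 ovaries lie above all other points, Cyp17a1 overlaps between ovary and liver, and Vegfa is lowest in the ovary.

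Of 6 genes of cholesterol uptake 2 were higher than the mean of the tissues and 4 lower (4 and 2 under total counts), with a median log2 difference of -1.15 and none higher than every other tissue. Scarb1, the HDL receptor that feeds steroid cells, ran from 4.08 to 13.4 CPM in ovary (median 6.00) and from 1.70 to 10.8 CPM in liver (median 6.31). Ovaries and livers overlapped, and the difference to the mean of 4 (log2 1.08 ± 0.15) came with only 0.16 against liver. Apoe, Npc1, Lcat and Cd36 were lower, by log2 differences of -1.29, -0.999, -2.79 and -2.08. For Apoe and Lcat the liver carried this: against heart the differences were 0.05 and -0.85, and under total counts Apoe and Npc1 turned to 0.22 and 0.50. For cholesterol synthesis itself, 4 of 14 genes were higher and 7 lower (12 and 2 under total counts). All 14 were lower than in liver and 11 of 14 were higher than in heart.

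Proximal promoter sequence is shown for 6 genes that separate the ovary, to put letters beside these levels. They were picked from a larger set of genes examined. Of the windows not printed, those of Lhcgr, Esr2, Slc18a2, Obox1 and another start of Cyp11a1 held no match to the sites marked below. For Greb1 and Cyp19a1, also not printed, some starts held a match and others none. The table used held no promoter of Star, Cyp17a1, Nr5a1 or Gdf9. Each line gives the 100 bases before a RefSeq start site on GRCm38.p6, read on the gene's own strand. Capitals mark matches, on either strand, to AGGTCA, the core site of nuclear receptors, or to the TATA box TATAAA. Coordinates are Hsd3b1 chr3:98859795-98859894 (minus strand), Cyp11a1 chr9:58014852-58014951 (plus strand, 1 of several starts), Inha chr1:75507509-75507608 (plus strand), Nr0b1 chrX:86191675-86191774 (plus strand), Oosp1 chr19:11691052-11691151 (minus strand) and Oog2 chr4:144190617-144190716 (plus strand).
Hsd3b1: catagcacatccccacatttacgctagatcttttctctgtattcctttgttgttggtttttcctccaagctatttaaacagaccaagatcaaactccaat
Cyp11a1: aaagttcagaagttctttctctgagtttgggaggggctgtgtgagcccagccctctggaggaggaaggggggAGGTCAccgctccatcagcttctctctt
Inha: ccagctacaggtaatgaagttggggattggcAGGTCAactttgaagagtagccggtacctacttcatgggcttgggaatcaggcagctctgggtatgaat
Nr0b1: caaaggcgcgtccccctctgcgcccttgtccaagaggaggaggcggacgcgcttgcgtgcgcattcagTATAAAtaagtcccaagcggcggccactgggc
Oosp1: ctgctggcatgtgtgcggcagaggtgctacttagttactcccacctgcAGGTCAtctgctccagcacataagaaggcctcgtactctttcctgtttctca
Oog2: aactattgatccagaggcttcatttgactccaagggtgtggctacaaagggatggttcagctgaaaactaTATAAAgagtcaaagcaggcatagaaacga
AGGTCA lay 28 to 23 bases before the start in Cyp11a1, 69 to 64 bases before it in Inha and 52 to 47 bases before it in Oosp1. TATAAA lay 32 to 27 bases before the start in Nr0b1 and 30 to 25 bases before it in Oog2.

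Over the 250 bases before the start, AGGTCA was present in 35 of 209 genes higher than every other tissue (16.7%) that the table holds, in 15% of the tested genes of the panel and in 14% of all promoters. The longer form CAAGGNCA, the site read by Nr5a1 and related factors (with T at its N it contains AGGTCA), was in 11 of 209 (5.26%), against 6.01% and 5.53%, and in 0 of 6 steroid genes. TATAAA was in 10% of the 209, against 11.9% and 12.4%. A gene counted if any of its starts matched, whereas the share of all promoters counts each start singly, so the units differ. In the short lists AGGTCA was in 3 of 7 granulosa promoters, 2 of 6 steroid promoters and 1 of 4 oocyte promoters, and TATAAA in 3 of 7, 1 of 6 and 0 of 4. These are counts of letters in a short window, over few genes in the lists.

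The gonadal transcription factors carried a large difference in a few members. Of 7 tested, 6 were higher and 1 lower (7 and 0 under total counts), 3 of them higher than every other tissue, with a median log2 difference of 1.10. Nr5a1, steroidogenic factor 1, which drives steroid genes in gonads and adrenal, ran from 68.3 to 151.2 CPM in ovary (median 100.3). All 67 other libraries together held 18 Nr5a1 counts, none in lung, and the ovary mean was 2099 times that of heart. Nr0b1, encoding the Nr5a1 corepressor DAX1, ran from 10.3 to 33.5 CPM (median 24.8) and was 166 times the kidney mean.

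Sox4, a factor of progenitor and stromal cells, was found in every organ but was highest in ovary. Its 388.5 to 727.3 CPM (median 527.8) lay above all other libraries, with a log2 difference of 2.95 ± 0.08. The remaining factors were shared with single organs. Gata6 was higher than the mean (log2 0.74 ± 0.05) but lower than in heart (-1.56), and without kidney among the tissues the difference turned to -0.20. Nr2f2, a stromal and theca factor, was higher by 1.02 and within 0.13 of kidney. Foxo3, which holds primordial follicles dormant, was lower by -0.55 (0.95 under total counts).

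Among hormone receptors, 8 of 11 were higher and 3 lower (9 and 2 under total counts), with 3 higher and 1 lower than every other tissue (median log2 2.32, or 2.28 with the floor). Lhcgr, the receptor of luteinizing hormone, ran from 30 to 195.6 CPM in ovary (median 86.7). The highest other library, a heart, had 1.01 CPM, liver had no count, and the ovary mean was 609 times that of lung. Esr2, estrogen receptor beta of granulosa cells, ran from 121.4 to 331.6 CPM (median 209.2), against at most 12.4 in lung and under 1 elsewhere. Its log2 difference was 9.72 ± 0.17, with all 20 ovaries above every other library.

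Pgr, the progesterone receptor that mural granulosa cells switch on before ovulation, ran from 25.8 to 532.9 CPM with a median of 265.6. Lung reached 43.2 CPM and 19 of 20 ovaries lay above it; the exception was animal 9 of the 1,2-dichlorobenzene controls. The log2 difference was 6.85 ± 0.18 (edgeR adjusted p = 2.9e-52). Esr1, estrogen receptor alpha, was higher than the mean by 3.28 ± 0.18 but had overlapping levels in liver (log2 0.31).

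Lower in ovary were the glucocorticoid and growth hormone receptors and, under TMM scaling, the EGF receptor. Nr3c1, the glucocorticoid receptor, ran from 61.5 to 106.2 CPM in ovary (median 74.9), and every one of the 67 other libraries had at least 150.7 CPM. Under TMM all 20 ovaries lay below them, with a log2 difference of -1.79 ± 0.04 (edgeR adjusted p = 4.7e-55). Ghr, the growth hormone receptor, was lower by -2.09 and Egfr by -0.84, while Ghr differed by -0.11 and Egfr by -0.07 from lung. The Egfr difference turned to 0.66 under total counts and to 0.34 without liver. The prostaglandin E receptors Ptger2 (log2 2.90) and Ptger4 (1.53) and the IGF receptor Igf1r (1.63) were higher than the mean; Igf1r was 0.13 below kidney.

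All 10 granulosa genes tested were higher than the mean of the tissues, and 8 were higher than every other tissue. Their median log2 difference was 6.08. Inha, the inhibin alpha subunit, ran from 1099 to 2455 CPM in ovary with a median of 1688, and the highest other library, a heart, had 11.3 CPM. The ovary range was narrow and far from all others. The log2 difference was 10.12 ± 0.12 (edgeR adjusted p = 6.1e-76) and the ovary mean was 187 times that of heart.

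Inhba, the beta A subunit of activin A and inhibin A, ran from 124.3 to 680.5 CPM (median 461). Liver was the next tissue, at 22.6 to 67.1 CPM, and no liver reached an ovary (log2 6.55 ± 0.18 against the mean of 4, 3.67 against liver). Fst, follistatin, which binds activin, ran from 27.9 to 78.4 CPM (median 51.3), 17 times the kidney mean. Amh, the anti-Mullerian hormone of growing follicles, was present at 6.63 to 23.5 CPM (median 11.5) and was 30.4 times the heart mean. For both genes all 20 ovaries lay above every other library.

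Serpine2, a protease inhibitor of granulosa cells, ran from 975.5 to 1689 CPM (median 1411). It was expressed in lung too (316.1 to 443.3 CPM), and the log2 differences ranged from 1.85 against lung to 6.82 against liver. Slc18a2, a vesicular monoamine transporter, ran from 118 to 298.4 CPM (median 235.2) and was 111 times the heart mean, with at most 3.66 CPM in any other library. The pair that was not higher than every tissue was Gja1 and Ccnd2. Gja1, connexin 43, was higher than the mean by 3.99 but lower than heart by -1.01. Ccnd2 was higher by 1.15 with 0.04 against lung and -0.04 against heart.

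**Figure D3:**
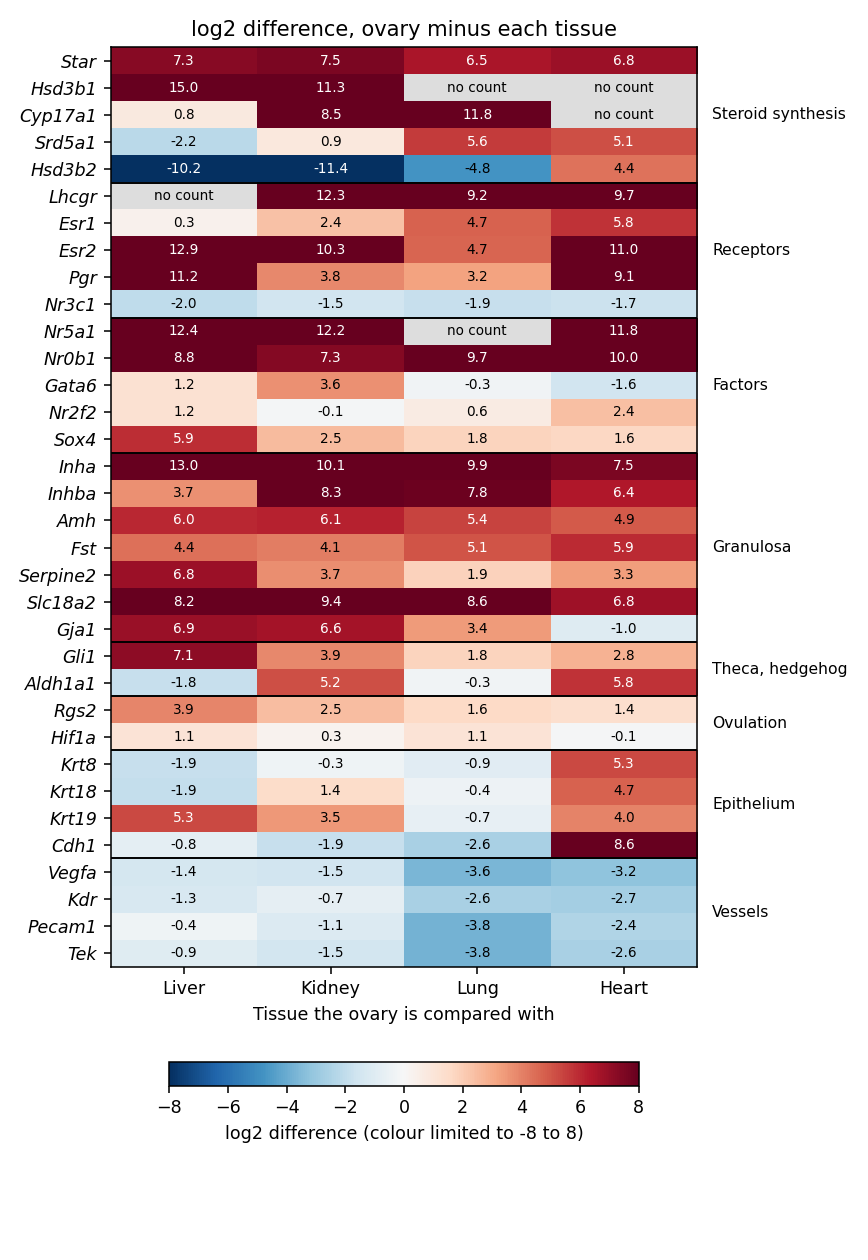
Log2 difference of the ovary from liver, kidney, lung and heart (columns) for 34 genes grouped by role (rows); red is higher in ovary, blue lower, and grey marks a tissue without a count. The granulosa rows are red in all columns except Gja1 in heart (-1.0), the vessel rows are blue in all columns, and Srd5a1 and the epithelial genes change sign between columns.

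Oocyte genes were few on the panel. All 6 tested were higher than the mean and 5 were higher than every other tissue, with a median log2 difference of 7.21 (6.84 with the floor). Of the 6, 5 had a tissue without a count. Genes seen almost only in ovary passed the filter on low counts through it, so their higher calls were largely fixed. Gdf9, the growth factor by which the oocyte directs granulosa cells, gave 0.711 to 5.85 CPM (median 2.29), above every other library in all 20 ovaries and 68.9 times the heart mean. Oosp1, an oocyte secreted protein, ran from 24.2 to 61.3 CPM (median 41.6), 144.6 times the lung mean, and its second probe gave 158 times. Lhx8, a factor needed for follicle assembly, ran from 5.21 to 15.6 CPM (median 10.1) and was 89.8 times the heart mean.

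Dazl, a germ cell RNA-binding protein, was at 1.11 to 6.01 CPM (median 3.07) and 21.2 times the heart mean. Dppa3, a maternal factor of the early embryo, was at 0.557 to 2.78 CPM (median 1.47) and had no count in the 67 other libraries. It was at least 85.7-fold higher than liver, the tissue for which the bound was computed. Kit, the receptor of oocytes for granulosa Kit ligand, also marks cells of other organs: it was higher than the mean by 1.11 ± 0.11 but lower than in lung by -0.70.

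Several of the genes farthest above every other tissue were oocyte genes outside that list. Oog2, an oogenesin, ran from 52.7 to 141.8 CPM (median 86.2), with 9 counts in all other libraries, and was 2069 times the kidney mean. Obox1 and Obox2, oocyte-specific homeobox genes, ran from 20.1 to 48.5 and from 16.9 to 42 CPM, with 1 and 3 counts elsewhere. Their ratios to lung have counting intervals of 3256 to 716400 and 1684 to 23870. Gm13084 ran from 16.7 to 42.2 CPM (median 25.7) and was 1596 times the kidney mean. The Oog and Obox genes are families of close copies, so a probe may read more than 1 member.

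No count outside the ovary was found for 5 of the 2595 genes tested, 3 of them at a mean of at least 1 CPM in ovary. Beside Dppa3 these were Tcl1 and Omt2b, singled out after their values were seen. All 5 passed the filter on low counts through the ovary alone, so a higher call was fixed for them. Tcl1 ran from 7.83 to 29.5 CPM (median 12.8) and was at least 815-fold higher than liver. Omt2b ran from 0.472 to 3.32 CPM (median 1.72) and was at least 98-fold higher than liver. Among the other strongest genes were Greb1, an estrogen-responsive gene, and Hoxc8, a homeobox gene of the trunk. Greb1 ran from 253.7 to 501.1 CPM (median 405.4), 41.3 times the kidney mean, with a log2 difference of 9.03 ± 0.11. Hoxc8 ran from 57.8 to 98.7 CPM (median 77.1) but was 2.41 times the kidney mean and otherwise almost absent, so its large log2 difference to the mean of 4 (9.68 ± 0.10) came from the other tissues.

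Of the ovulation genes 7 passed the filter on low counts, 5 were higher, 1 lower and 1 not called (7 higher under total counts; median log2 1.16). Rgs2, a brake on G-protein signalling, ran from 212 to 423.1 CPM (median 264.2) and lay above every other library in all 20 ovaries, with a log2 difference of 2.35 ± 0.08. Together with Pgr it was higher than every other tissue. Hif1a was higher by 0.60 with -0.10 against heart. Ptgs2, the inducible cyclooxygenase of the ovulating follicle, was low at 0.370 to 11.2 CPM (median 2.72): its log2 difference of 1.16 ± 0.23 became -0.18 without liver, and it was -2.87 against lung. Cebpb was lower by -0.42 (1.09 under total counts), and Il6 differed by 0.36 ± 0.30 and was not called (edgeR adjusted p = 0.26). Snap25 ran from 0 to 1.58 CPM with a median of 0, and the epidermal growth factor Ereg did not pass the filter.

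Of 7 theca and interstitial genes 6 were higher and 1 lower (6 and 0 under total counts), 3 of them higher than every other tissue (median log2 3.89). Of these, Star, Cyp17a1 and Lhcgr, were given above. Gli1, a target and effector of hedgehog signalling from granulosa to theca, ran from 16.7 to 36.5 CPM (median 23.8), with a log2 difference of 3.89 ± 0.12 and 3.46 times the lung mean. Gli2, its partner, was higher by 3.85 ± 0.37, at 0.0835 to 2.10 CPM. Both hedgehog genes tested were higher than every other tissue. Aldh1a1, a retinoic acid enzyme of theca cells, was higher than the mean by 2.20 but lower than liver by -1.84. Insl3, the theca peptide hormone, was near the detection limit in all organs, at 0.0697 to 0.666 CPM in ovary (log2 -0.94 ± 0.33, or 0.52 under total counts).

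Of 6 luteal genes 5 were higher and 1 lower, 4 higher than every other tissue, with a median log2 difference of 7.31 (7.59 with the floor). All but Vegfa are steroid or receptor genes given above. Vegfa is the vascular growth factor that grows the luteal capillary bed. It ran from 165.6 to 414.8 CPM in ovary (median 243.7), and the lowest other library, a kidney, had 494.6 CPM. Under TMM every ovary lay below every other library, with a log2 difference of -2.46 ± 0.07 (edgeR adjusted p = 1.2e-50). The differences ran from -1.41 against liver to -3.65 against lung. The TMM factors of ovary and liver lie far apart, so the sign against liver depends on the scaling.

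Of 8 endothelial genes 7 were lower than the mean of the tissues and 1 was higher, and under total counts 5 were lower and 3 higher. Kdr, the main VEGF receptor, ran from 45.9 to 92.7 CPM (median 66.1) and was lower by -1.84 ± 0.06. Tek, the angiopoietin receptor, ran from 10 to 23.8 CPM, below every other library in all 20 ovaries under TMM (log2 -2.20 ± 0.07). Eng, an endothelial TGF-beta coreceptor, ran from 6.74 to 18.1 CPM, under TMM below every other library in all 20 (log2 -2.15 ± 0.08) and lower than every tissue by the strict rule. Pecam1 was lower by -1.91, but only by -0.36 against liver. Against kidney the list split into 4 higher and 4 lower, and against lung 7 of 8 were lower. The 1 gene higher than the mean was Sox17, which arterial endothelium shares with oviduct epithelium, at 23.2 to 139.5 CPM (median 97) and 1.48 ± 0.07 above the mean, yet 0.15 against lung. The summed endothelial markers were 199.4 to 300.7 CPM in ovary, 270.1 to 343.2 in kidney and 1300 to 2073 in lung.

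Blood genes were lower too. All 4 red cell genes were lower than every other tissue. Hbb-bs ran from 1044 to 11510 CPM in ovary (median 3912), and the lung median was 243598. Hba-a1 ran from 341.4 to 2714 CPM (median 1014), with 19 of 20 ovaries below every other library and a log2 difference of -4.20 ± 0.19. The summed red cell genes were 1394 to 14350 CPM in the ovaries and 11080 to 434500 CPM in the other organs. Aqp1, a water channel of red cells, capillaries and kidney tubules, was lower in all 20 (31.3 to 72.7 CPM, log2 -3.43 ± 0.06). Of 15 macrophage and leukocyte genes none was higher and 13 were lower (median log2 -0.91), but under total counts 9 were higher and 1 lower, and against kidney 7 were higher and 3 lower, so their direction rests on the scaling and the tissue. Whether blood content accounts for any of these differences was not tested.

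Cell division genes gave more members above every other organ than any other list. Of 54 cell cycle genes 48 were higher and 6 lower, and 33 were higher than every other tissue (the background share is 11%), with a median log2 difference of 2.09. Under total counts 52 were higher and 2 lower. Cenpe, a kinetochore motor, ran from 80 to 182.3 CPM in ovary (median 124.6). The other tissue medians lay between 4.70 and 12.8 CPM and the highest other library, a kidney, had 46.1, so all 20 ovaries stood above, with a log2 difference of 3.80 ± 0.13. Kif23, a kinesin of cytokinesis, ran from 29.7 to 79.1 CPM and was higher by 2.80 ± 0.08. Cdk4, the G1 kinase, ran from 574.8 to 795.5 CPM (median 729.2) against at most 328.2 elsewhere, and was higher by 1.55 ± 0.03.

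DNA repair genes went with them: 17 of 19 were higher and 1 lower (19 and 0 under total counts), 11 of them higher than every other tissue (median log2 1.91). Chek1, the checkpoint kinase, ran from 25.6 to 70.3 CPM (median 40.2), 10.5 times the lung mean, with a log2 difference of 3.66 ± 0.12. The direction did not depend on 1 organ, since 44 to 46 of the 54 cell cycle genes and 16 to 18 of the 19 repair genes were higher than each organ taken singly.

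**Figure D4:**
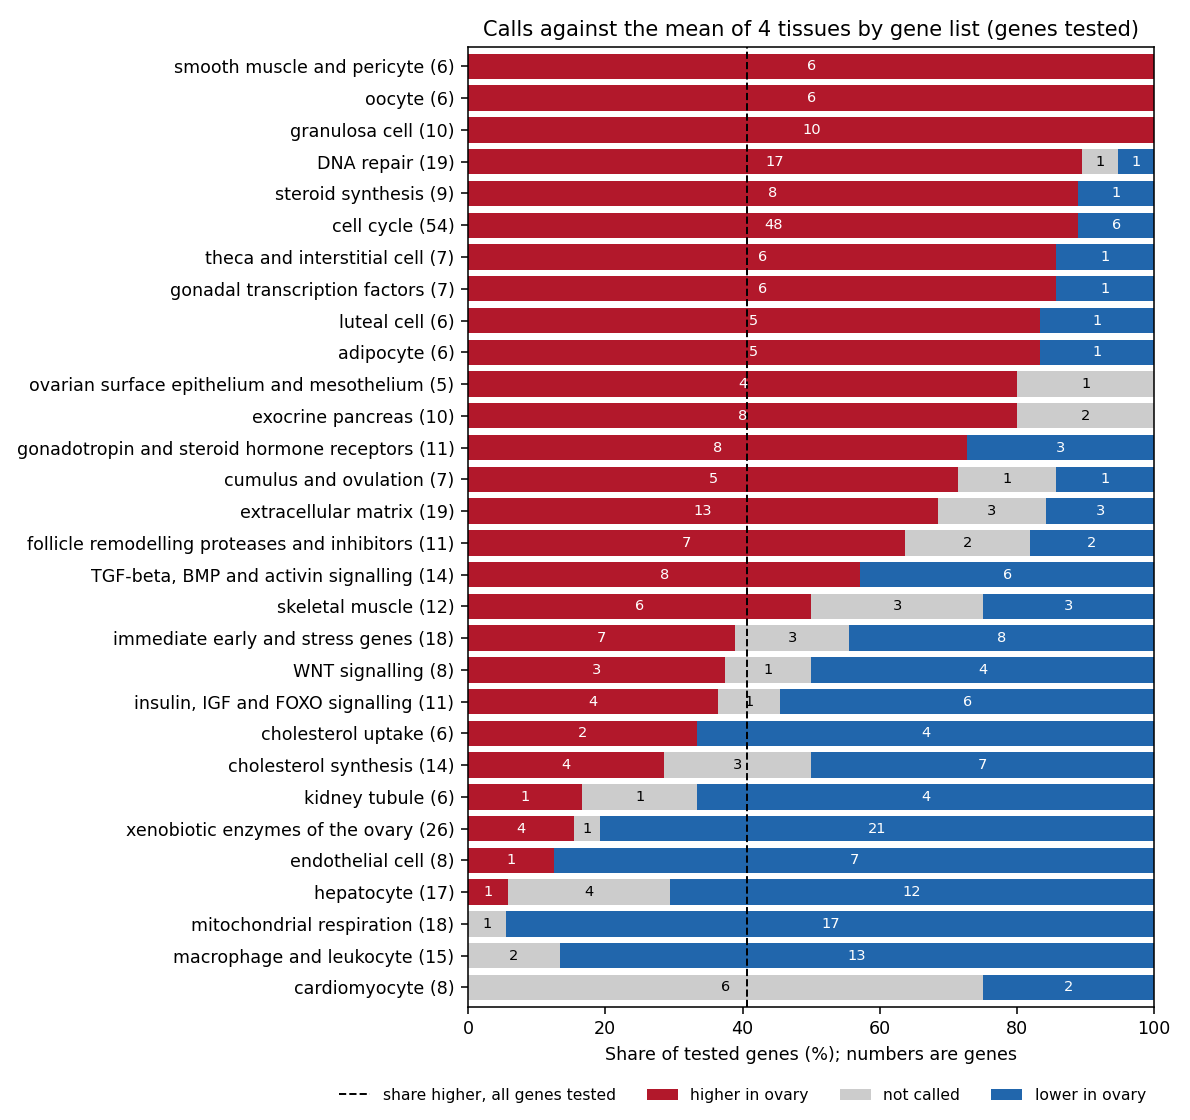
Share of the tested genes in each list that were higher (red), lower (blue) or not called (grey) in ovary against the mean of the 4 tissues; the dashed line marks the 40.6% of all genes that were higher. The granulosa, oocyte and smooth muscle lists are entirely red, cell cycle has 48 of 54 red, and mitochondrial respiration has no red part. Grey parts can hold large falls: of the cardiomyocyte genes 2 were lower and 6 not called here, but 8 were lower with DESeq2's Wald test.

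Matrix and stromal genes were mostly higher. Of 19 extracellular matrix genes 13 were higher and 3 lower (19 and 0 under total counts), with 1 higher than every other tissue (median log2 1.08). Col1a1, a chain of fibrillar collagen I, ran from 458.6 to 1602 CPM (median 775.1), overlapping kidney, lung and heart, and was higher by 2.38 ± 0.12. All 6 smooth muscle genes were higher (median log2 2.32), 2 of them higher than every tissue. Actg2, enteric gamma actin, ran from 13.1 to 34.5 CPM (median 21.6), 7.21 times the lung mean. Of 11 follicle remodelling proteases and inhibitors 7 were higher and 2 lower (10 and 0 under total counts; median log2 1.38). Htra1, a secreted protease that cuts matrix proteins, ran from 868.4 to 1990 CPM (median 1108), with all 20 ovaries above every other library and a log2 difference of 2.89 ± 0.05. Mmp14, the membrane-type metalloproteinase, ran from 65.8 to 133.9 CPM, above all others (1.76 ± 0.07), while Mmp2, which it activates, was higher than the mean by 1.59 but differed by -0.11 from lung and -0.28 from heart.

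In the signalling lists the counts moved with the scaling. TGF-beta, BMP and activin genes had 8 higher and 6 lower of 14 (median log2 0.10; 12 and 1 under total counts), WNT 3 and 4 of 8 (8 and 0), and insulin, IGF and FOXO genes 4 and 6 of 11 (10 and 1). Over all 2937 probes total counts gave 2366 higher and 286 lower. Of the insulin list, Igfbp6, a binding protein of IGF2, was higher by 2.16 ± 0.08 but lower than lung by -1.29. Immediate early and stress genes had 7 higher and 8 lower of 18, and under total counts 14 and 0. Against lung 13 of 18 were lower and 2 higher, against liver 12 were higher and 4 lower.

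Epithelial markers were shared with other organs. Of 5 surface epithelium and mesothelium genes 4 were higher (5 under total counts) and none was higher than every tissue (median log2 0.85). Krt18 ran from 89.2 to 1155 CPM in ovary (median 717.1) and was higher by 0.96 ± 0.12. Krt8 (0.56), Krt19 (3.02) and Cdh1 (0.85) were higher as well. Krt7 differed by -0.08 ± 0.21 and was not called (edgeR adjusted p = 0.75), with a sign that varied by scaling. For 3 of them heart, which has little epithelium, made the difference: without heart Krt8 became -1.01, Krt18 -0.28 and Cdh1 -1.72. Against lung all 5 were lower, and against heart all 5 were higher.

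Markers of structures that may be attached to a whole ovary were measured. Pax8, of oviduct epithelium and kidney, ran from 4.96 to 226.2 CPM in ovary (median 136.7), against 522.4 to 800.5 in kidney and at most 2.52 in the other organs. The summed 3 oviduct markers ran from 29.2 to 368.1 CPM in ovary and from 559.3 to 864.3 in kidney, with animal 9 of the 1,2-dichlorobenzene controls the lowest for Pax8. Hoxa10, a uterine and kidney gene, ran from 1.09 to 13.4 CPM. Of 6 fat markers 5 were higher and 1 lower (6 and 0 under total counts). Adipoq, Cidec, Cfd and Pparg were higher than every other tissue, and Lpl was lower than the mean (log2 -0.94). The level summed over all 6 was 248.6 to 3489 CPM in ovary (median 1388) and 1177 to 3110 in kidney (median 1908). It was 349.4 to 3104 in lung, 97.2 to 339.3 in liver and 21860 to 44680 in heart, so this sum was not highest in ovary. Cfd, the adipocyte protease adipsin, ran from 28.3 to 1081 CPM (median 229.7), and some lungs reached higher (up to 1754). Adipoq, encoding adiponectin, ran from 0.311 to 15.6 CPM. The part of these tissues in the ovary values was not tested.

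Of the 10 exocrine pancreas genes tested 8 were higher (10 under total counts) and 6 were higher than every tissue; with all 0 ppm libraries, including those not used by the submitters, 1 was higher. Their summed level was 21.4 to 41.1 CPM in ovary and 4.68 to 11.9 CPM in lung. Most of it was Cpa1, carboxypeptidase A1, at 13.2 to 37 CPM (median 24.6) with all 20 ovaries above every other library (log2 6.76 ± 0.19). Of 12 skeletal muscle genes 6 were higher and 3 lower (9 and 1 under total counts), and Myh2, a fast fibre myosin, ran from 1.34 to 4.98 CPM (median 2.94), 10.2 times the lung mean. Hao2, a peroxisomal oxidase of kidney and liver, was the 1 kidney tubule gene above the mean of the tissues, at 123.7 to 537.5 CPM (median 262.5): it was lower than kidney by -3.80 and higher than liver by 1.19.

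Energy metabolism was lower in ovary than in 3 of the 4 organs. Of 18 mitochondrial respiration genes 17 were lower than the mean and none was higher (median log2 -1.95), and under total counts 12 were lower and 2 higher. The 1 gene not called, Cox6a2, differed by -4.48, and with DESeq2's Wald test all 18 were lower. All 18 were lower than in kidney and in heart and 15 were lower than in liver, but 12 were higher than in lung. Atp5b, the ATP synthase beta subunit, ran from 2669 to 3447 CPM in ovary (median 3035), against 1825 to 2553 in lung and 32010 to 55590 in heart. The ovaries were a tight group just above lung (log2 0.52) and far below heart (-3.94). Ndufa9, of complex I, was lower than the mean by -1.86, with 0.27 against lung.

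Of 26 xenobiotic enzymes 21 were lower and 4 higher (median log2 -1.40), with 12 higher and 10 lower under total counts. Over all 2937 probes total counts gave 2366 higher and 286 lower, so the list still held fewer higher genes than that background. Cat, catalase, ran from 88.7 to 196.5 CPM in ovary (median 143.8), and every other library had at least 482 CPM. Under TMM all 20 ovaries lay below, with a log2 difference of -3.40 ± 0.07. The difference ran from -1.92 against heart to -6.17 against liver, and the value against heart rests on the scaling. Por, the reductase that feeds electrons to the cytochrome P450 enzymes, was lower by -1.86 but differed by 0.09 from heart. Against heart the list as a whole had 9 higher and 10 lower.

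The genes farthest below every other tissue were of mixed function. Fmo1, a flavin monooxygenase of drug metabolism, had a median of 0 and at most 0.395 CPM in ovary, against 63.3 to 102.4 in liver, and its log2 difference was -6.80 ± 0.47. Mapt, encoding the microtubule protein tau, ran from 0.711 to 4.95 CPM in ovary (median 1.59), below every one of the 67 other libraries (log2 -5.45 ± 0.12). Tuba4a, an alpha tubulin of differentiated cells, ran from 10.7 to 29.3 CPM (median 15.7), also below all of them (-4.52 ± 0.07). Serpind1, the liver clotting inhibitor heparin cofactor II, was lower by -5.19 and Gsta1, a glutathione transferase, by -4.56.

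Lmod3, a leiomodin of striated muscle, was lower than the mean by -5.00, Cpt1b, the muscle fatty acid carrier, by -4.03, and the read-through transcript Chkbcpt1b, which overlaps Cpt1b, by -4.72. Gnmt, a glycine methyltransferase of liver, was lower by -4.23. The differences to single organs were unequal: Gnmt was lower than liver by -10.28 and than heart by -1.03, and Lmod3 lower than heart by -11.26 and than liver by -2.71.

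Markers of the compared organs reached the ovary at low levels. Hepatocyte markers summed to 241.9 to 1048 CPM in ovary, 21.9 to 233.2 in heart and 666200 to 959300 in liver. Ttr, the thyroid hormone carrier transthyretin, ran from 0 to 88 CPM in ovary (log2 -3.71 ± 0.47, or -0.33 without liver). Cyp2f2, of lung club cells, ran from 9.91 to 151.6 CPM against 13760 to 27380 in lung (log2 -2.05 ± 0.21, or 0.11 without lung). Tnnt2, cardiac troponin T, ran from 28.5 to 73.2 CPM against at least 158400 in heart (log2 -2.08 ± 0.18, or 1.28 without heart).

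The ovaries differed most from each other in 8 genes that were chosen for their spread, so the following are descriptions. The SD of log2 CPM over the 20 ovaries was 3.23 for Fga, 2.21 for Star, 2.03 for S100a4, 1.84 for S100a8, 1.64 for Lcn2, 1.61 for Cyp17a1, 1.55 for Fabp4 and 1.48 for Nrcam. Fga, a fibrinogen chain of liver, was at 100.6 to 153.8 CPM in 3 ovaries (animals 4, 7 and 9 of the 1,2-dichlorobenzene controls), with a median of 6.74 over all 20. Lcn2, an iron-binding protein of inflamed epithelium and of uterus, reached 9652 CPM in 1 ovary with a median of 238.7, and S100a8, of neutrophils, reached 528.6 in 1 ovary with a median of 3.32. Nrcam, a cell adhesion molecule, reached 478.9 and 362.5 CPM in 2 ovaries with a median of 25.3. Fabp4, of fat and endothelium, ran from 12.5 to 519.4 CPM, and S100a4, of stromal cells and leukocytes, from 34.9 to 2977.

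Across the 20 ovaries, 6 pairs of genes were correlated on log2 CPM, with permutation tests. Star went with Cyp11a1: Pearson's r was 0.904 (permutation p = 1e-05, the smallest that the permutations can give; adjusted 6e-05) and Spearman's rho 0.914. Without the 2 ovaries farthest from the median of Star r was 0.898, and within the series it was 0.888 and 0.84. Inha went with Inhba at r = 0.772 (rho 0.809, permutation adjusted p = 0.00039), and r was 0.703 without the 2 farthest ovaries and 0.717 and 0.834 within the series. Star and Inha went in opposite directions, with r = -0.569 (rho -0.644, permutation adjusted p = 0.0187), -0.636 without the 2 farthest, and -0.434 (permutation p = 0.211) and -0.703 (permutation p = 0.0244) within the series. Star with Scarb1 (r = 0.294), Star with Cyp17a1 (r = -0.22) and Inha with Cyp19a1 (r = 0.408) did not pass. The 10 ovaries of each experiment differ in level for Star, so the pooled values hold a part of that difference.

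**Figure D5:**
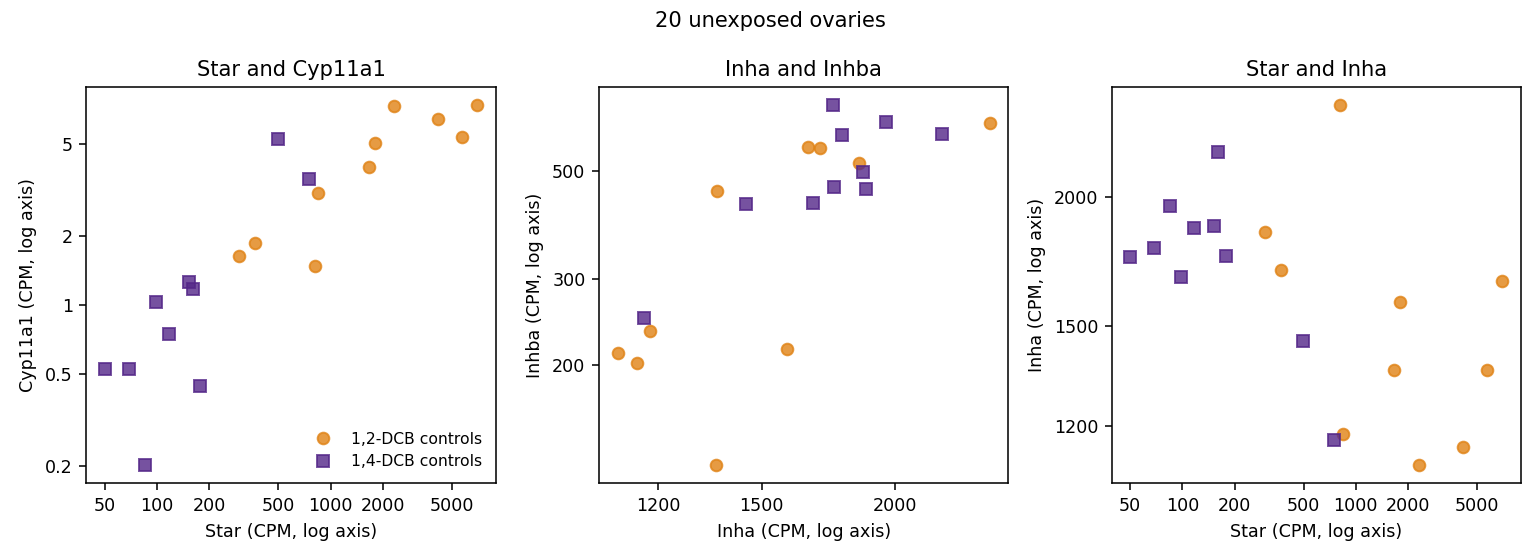
CPM of paired genes in the 20 ovaries on log axes, with orange circles for the 1,2-dichlorobenzene controls and purple squares for the 1,4-dichlorobenzene controls. Cyp11a1 climbs with Star in both sets of controls, Inhba climbs with Inha, and Inha is lower where Star is high; the orange points lie farther right on the Star axis.

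The ovary's difference from the other tissues was itself compared between the control sets of the 2 experiments, and it differed in 139 probes (4.73%). The 2 sets were separate experiments, so anything that differed between them cannot be told apart. Star was higher than the mean of tissues by 8.58 in the 1,2-dichlorobenzene controls and by 5.51 in the 1,4-dichlorobenzene controls, a log2 difference of 3.07 (edgeR adjusted p = 8.3e-08). The ovary levels behind it were 297.5 to 7024 CPM and 50 to 748.6 CPM, which overlap. Pgr went the other way, at 5.85 and 7.84, and no gene of the granulosa list passed this test.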

How the data were processed

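The values are whole-number counts per probe, deposited by the authors in a table with 1 column per library. The submitters' processing notes list Bowtie 1.3.1; the build or manifest is not given in the sources used here. Columns of exposed animals were not used. The deposited counts carry the authors' attenuation adjustment: 58 of 3154 probes hold whole multiples of a factor between 2 and 21 in the control libraries. Groups came from the labels (tissue, concentration, experiment). The 13 control libraries that the labels mark as not used were left out.

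Probes passing edgeR's filterByExpr were fitted in R 4.3.3 with edgeR 4.0.16 (quasi-likelihood, robust, TMM), with 1 coefficient per tissue and experiment and Benjamini-Hochberg adjustment over 2937 probes; tests were two-sided. The contrasts were ovary minus the mean of 4 tissues weighted equally, ovary minus each tissue, and their difference between experiments. The SE after ± is approximate: it is the absolute log2 difference divided by the square root of the test's F value. For a gene with several probes the probe with the highest mean CPM is given. A tissue without a count was set to 3 counts over the group for fold bounds. Intervals of ratios and such bounds cover counting error only. Correlations used SciPy 1.17.1 with 1e+05 permutations. Alternatives were other scalings, DESeq2 1.42.0, no filter, undone attenuation, the animal as a block, each experiment alone, and libraries or tissues left out.

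Genes named are the 15 largest differences among probes higher than every tissue with at least 20 CPM, the 10 largest among those lower, all tested ovarian list members, up to 4 members of other lists by adjusted p, and the 8 with the largest spread; some genes of these rules are not reported here. The members and lists were chosen with earlier results of these data known. Same-animal libraries share the animal: the median correlation of an ovary's deviations with those of its own animal's organs was 0.0248 for liver, 0.0296 for kidney, 0.059 for lung and 0.0351 for heart. No copies were found among 352 library pairs within groups: 0 had equal values, and chi-square divided by its degrees of freedom was at least 10.8. The fit was tested on simulated data of 2876 probes: of 97 changed by 1 log2 unit 88.7% were called, of 97 changed by 2 units 100%, and 6.15% of calls were false, above the 0.05 aimed at. In all other simulated probes the ovary was set to the mean of the other tissues, whereas 83.2% of the real probes were called. The simulation therefore did not test the scaling. Promoters are RefSeq's, on GRCm38.p6; 1931 of 2595 tested genes matched by symbol.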

Additional observations from a re-analysis of the deposited data

Results flagged for a closer look

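The ovary's difference from the mean of the 4 tissues was itself different between the control sets of the 2 experiments for 10 named genes (edgeR adjusted p under 0.05, given as the log2 difference in the 1,2-dichlorobenzene controls minus that in the 1,4-dichlorobenzene controls). This signed value was above 0 for S100a4 (3.61), Star (3.07), Gsta1 (2.62), Mapt (0.937), Mmp2 (0.665) and Htra1 (0.437). It was below 0 for Pgr (-1.99), Cdh1 (-1.05), Cd36 (-0.816) and Sox17 (-0.574). Gsta1, Mapt and Cd36 were lower in ovary in both sets: the differences behind the values were -3.24 and -5.87 for Gsta1, -4.98 and -5.91 for Mapt, and -2.49 and -1.68 for Cd36. For S100a4 they were 4.76 and 1.14.

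A single ovary lay far from the other 9 of its control set in 30 of 232 sets examined (12.9%). The rule flags about 1 in 20 sets of normally distributed values. Here it was applied to CPM without logs, and the genes include those chosen for their spread. The 12.9% therefore cannot be set against that rate. The value given is the gap to the nearest ovary as a share of the whole range, and in each case the outlying ovary was the highest. In the 1,2-dichlorobenzene controls these were S100a8 (0.984, at 528.6 CPM in animal 4), Nrcam (0.853, at 478.9 CPM in animal 1), Gnmt (0.717), Rgs2 (0.657, at 423.1 CPM against a median of 254.2), Il6 (0.573), Snap25 (0.541), Adipoq (0.499), Foxo3 (0.481) and Fmo1 (1.0, at 0.0697 CPM where the other ovaries had none).

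In the 1,4-dichlorobenzene controls animal 10 was the outlying ovary for Lcn2 (0.974, at 9652 CPM against a median of 207.9), Ptgs2 (0.751), Tuba4a (0.669), Krt8 (0.658) and Cdh1 (0.477). Animal 1 was outlying for Nrcam (0.901, at 362.5 CPM), Hbb-bs (0.7, at 11510 CPM against a median of 4348), Scarb1 (0.62), Hba-a1 (0.584) and Alas2 (0.47). Animal 9 was outlying for S100a8 (0.778), Mapt (0.658), Vegfa (0.529) and Cyp11b1 (0.519). Animal 2 was outlying for Nr3c1 (0.697), Serpind1 (0.695) and Aqp1 (0.471). Animal 6 was outlying for Fga (0.59) and Snap25 (0.513), animal 5 for Insl3 (0.47) and animal 3 for Fmo1 (1.0, at 0.395 CPM).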

How the results depend on the processing

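The number of probes called, 2444, was 2425 to 2453 when each ovary was left out in turn and 2443 to 2454 when each kidney of the smallest group was left out. Probes higher than every other tissue ranged from 317 to 324 and lower ones from 59 to 63 over those fits, and the probes whose ovary difference varied between experiments from 104 to 193. With the animal as a replicate block 2491 probes were called, 1185 higher and 1306 lower, with 320 and 65 higher and lower than every tissue, so the block moved no count by over 1.5 times.

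Total counts without a scaling factor changed most: 2366 higher and 286 lower (89.2% of calls higher, median log2 1.41), 742 and 5 against every tissue, 2414 and 386 against liver, 1896 and 655 against kidney, 2077 and 552 against lung, and 2526 and 270 against heart. Upper quartile scaling gave 59.7% higher and a median of 0.19. The median was 0.0645 with DESeq2's size factors in edgeR, 0.0585 with DESeq2, 0.0247 with attenuation undone, 0.0464 without liver and 0.106 without lung. Probes lower than every tissue numbered 101 without liver, 98 without kidney, 155 without lung and 128 without heart, where fewer tissues had to pass. The correlation of Star and Cyp17a1 was 0.0105 on ranks.

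Of 116 genes in the text 95 kept direction and side of the threshold under 16 settings. Directions turned for Krt7 (0.0708 with DESeq2's size factors, 0.19 with upper quartile, 1.41 with total counts, 0.0795 with DESeq2, 0.0368 with attenuation undone, 0.68 without kidney, 1.17 without lung). Under total counts they turned for Apoe (0.22), Npc1 (0.50), Egfr (0.66), Cebpb (1.09), Foxo3 (0.95), Insl3 (0.52) and S100a8 (0.0341). In the 1,4-dichlorobenzene controls alone Il6 was -0.58. Without liver Apoe was 0.50, Egfr 0.34, Fga 0.55 and Ptgs2 -0.18. Without kidney Gata6 was -0.20 and Il6 -0.0657. Without lung Cyp2f2 was 0.11. Without heart Krt8 was -1.01, Krt18 -0.28, Cdh1 -1.72 and Tnnt2 1.29. Without animal 10 of the 1,4-dichlorobenzene controls the Lcn2 difference fell to 0.04. The cause of these changes was not tested. The setting without the 3 ovaries with the most Fga was chosen after seeing the data. Depth limits genes under about 1 CPM, where 1 ovary library holds few counts.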
